A study of Homo sapiens with 94 samples.

Results

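The tumors described here are the untreated xenografts of NCI-H226, a human tumor line grown from a malignant pleural mesothelioma and established in culture, in which NF2 is deleted. They were chosen by their labels, which name no compound and 1 cage group in each of 3 studies, and they number 15 of the 94 tumors of the series. The series followed tumors after a single dose of the TEAD inhibitor K-975 or of its vehicle in a 1 h study, a 3-6 h study and a 24 h study, and each study had its own untreated group of 5 tumors. Cells were inoculated under the skin of the right flank of female CB17 SCID mice of 6 to 8 weeks, which lack functional T and B cells, and untreated mice received neither compound nor vehicle. Vehicle tumors, which are set beside the untreated ones below, came from mice given 1 oral dose of a mixture of ethanol, Solutol and glucose and numbered 19. Of these, 5 belonged to the 1 h study, 10 to the 3-6 h study in 2 cage groups of 5, and 4 to the 24 h study. Which of the 2 cage groups stands for 3 h and which for 6 h is not labelled, and for the untreated tumors the names 1 h, 3-6 h and 24 h mark the study, since these mice were given no dose from which to count. All tumors came from 1 cell line, and in each study the untreated mice shared 1 cage group, so that study, cage and time of sampling cannot be told apart. P-values therefore measure the spread between tumors of 1 cage group.

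In the Hippo pathway, a chain of kinases that ends in LATS1 and LATS2 phosphorylates the co-activators YAP1 and WWTR1 (TAZ) and keeps them out of the nucleus. NF2 encodes merlin, which helps to activate these kinases at the cell membrane, and its loss is a frequent lesion of mesothelioma. Unphosphorylated YAP1 and TAZ bind the TEAD transcription factors at target genes such as CCN1 (CYR61) and CCN2 (CTGF). Xenografts also grow into tissue with a limited supply of blood, and cells short of oxygen raise genes of glucose uptake, glycolysis and vessel growth through hypoxia-inducible factors.

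Levels were deposited as FPKM, which counts fragments relative to transcript length and to the library total. The libraries had been enriched with capture probes, so that a level compared between genes also depends on capture, and the number of reads is unknown. The 15 libraries held 11336 to 11552 genes at an FPKM of at least 1, and the 3 libraries of the series with fewer than 10000 such genes all belong to treated tumors. Log2 values of 2 untreated tumors correlated with r between 0.937 and 0.975, so none was taken for a second copy of another. For NF2 itself, all 15 tumors had a listed value of 0. Genes that every cell uses could also be near 0, as POLR2A, a subunit of RNA polymerase II, had a mean FPKM of 0.102 and was at 0 in 9 of 15 tumors, and RPS3A, a ribosomal protein gene, had 0.296 and was also at 0 in 9. These genes were chosen after their values were seen, and a value of 0 is given below only as listed at 0.

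The markers named for this model were all measured, and TEAD1 differed between the studies whereas the others did not pass the test. MSLN, which encodes the mesothelial surface protein mesothelin, stood at 294, 210, 299, 284 and 286 FPKM in the 5 tumors of the 1 h study, at 260, 254, 305, 225 and 297 in the 3-6 h study, and at 259, 230, 210, 255 and 205 in the 24 h study. These ranges overlapped among all 3 groups. YAP1 stood at 60.3, 62.9, 77.5, 74.3 and 64.2 FPKM in the 1 h study, at 69.4, 63.1, 63.8, 61.7 and 71.2 in the 3-6 h study, and at 69.1, 64.1, 73.3, 65.2 and 78.3 in the 24 h study, again with full overlap. CCN1, a secreted matrix protein and direct target of YAP1 and TEAD, stood at 161, 285, 153, 163 and 149 FPKM in the 1 h study, at 223, 266, 202, 283 and 193 in the 3-6 h study, and at 264, 194, 260, 262 and 318 in the 24 h study. A single tumor of the 1 h study, replicate 2, held both the lowest MSLN and the highest CCN1 value of its group. TEAD1 stood at 109, 112, 103, 104 and 99.2 FPKM in the 1 h study, at 139, 142, 171, 139 and 149 in the 3-6 h study, and at 111, 117, 116, 107 and 120 in the 24 h study. Every tumor of the 3-6 h study lay above every tumor of the other studies.

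**Figure D1:**
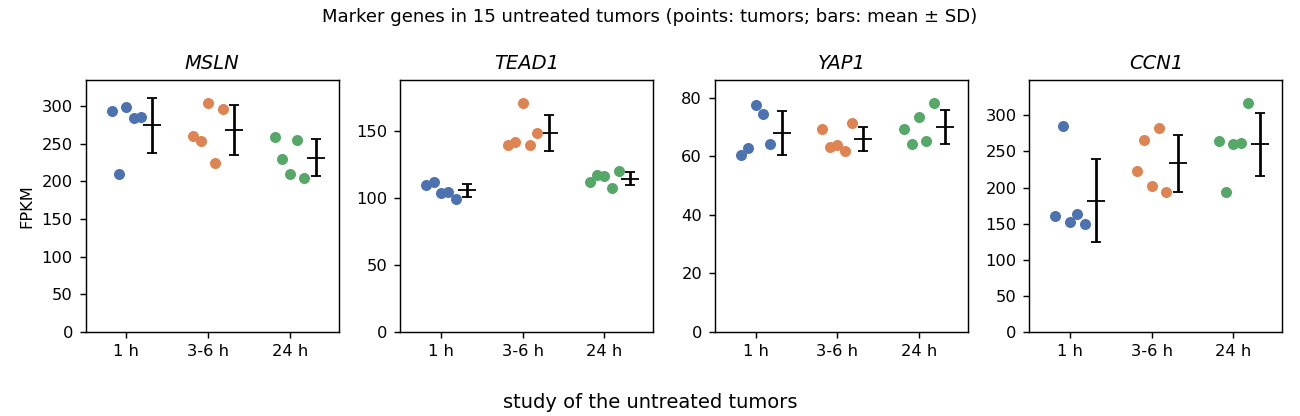
FPKM of MSLN, TEAD1, YAP1 and CCN1 in each of the 15 untreated tumors by study, with points for tumors and bars for the mean ± SD of 5. TEAD1 was 139 to 171 in the 3-6 h study and 99.2 to 120 in the other studies, whereas the groups of MSLN, YAP1 and CCN1 overlapped.

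The highest genes of the untreated tumors included ribosomal proteins, membrane proteins, secreted proteins and the glycolytic enzyme GAPDH. Of 20239 genes in the table, 4496 were listed at 0 in all 15 tumors and 10157 had an FPKM of at least 1 in all of them. By their mean over the 15 tumors, 6871 genes reached an FPKM of 10, 880 reached 100 and 31 reached 1000. RPL28, a protein of the large ribosomal subunit, was highest with a mean of 49250 FPKM ± 2740 (SD, n = 15) and 9.20% of the summed FPKM. It was followed by CD63, a tetraspanin of late endosomes and exosomes, at 11890 ± 551, PTGIS, which makes prostacyclin, at 4216 ± 720, GAPDH at 4135 ± 505 and APP, the amyloid precursor protein, at 4108 ± 175. RPL4, ANXA2, PABPC1, SLPI, CNN3, SCAMP2, complement C3, SPARC, RPL27A, RPL13, RPLP1, FLNA, SAA1, LGALS1 and SCD completed the 20 highest genes, which took 18.5% to 20.3% of the summed FPKM of a tumor. SAA1, which encodes an acute-phase protein of serum, was the most variable of the 20, with 224 to 2937 FPKM, whereas RPL4 lay between 3748 and 4148.

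Within the Hippo pathway, TEAD1 was the highest TEAD gene with a mean of 123 FPKM ± 20.6 (SD, n = 15). TEAD4 had 42.0 ± 5.57, TEAD3 12.4 ± 1.73 and TEAD2 8.55 ± 2.98. Of the co-activators, YAP1 had a mean of 67.9 ± 5.87 and WWTR1 12.3 ± 2.98. Among the VGLL proteins, which bind TEADs in place of YAP1, VGLL3 had 143 ± 26.8 and VGLL4 124 ± 17.2, and VGLL1 was listed at 0 in every tumor. Upstream, the kinase genes LATS1 and LATS2 had 16.8 ± 1.36 and 27.2 ± 6.81 FPKM, STK3 and STK4 (MST2 and MST1) had 19.9 ± 5.19 and 29.9 ± 6.09, and their scaffold SAV1 had 7.4 ± 1.11. The highest upstream gene was WWC1 (KIBRA), a scaffold that acts with merlin, at 393 ± 38.1, followed by the atypical cadherin FAT1 at 167 ± 29.1. Of the 22 targets of YAP1 and TEAD, the highest means were those of CRIM1 (313 ± 22.6), MYOF (290.5 ± 19.9), CCN1 (225 ± 55.3) and the receptor tyrosine kinase AXL (193 ± 23.3). CCN2 had only 12.5 ± 3.57 and ANKRD1 1.25 ± 0.521.

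Mesothelial and mesenchymal genes were both expressed in the untreated tumors. CALB2 (calretinin), a diagnostic marker of mesothelioma, had a mean of 567 FPKM ± 105 (SD, n = 15), the keratins KRT5, KRT7, KRT18 and KRT19 had 847 ± 262, 528 ± 104, 707 ± 84.7 and 448 ± 55.1, and UPK1B, WT1 and PDPN had 148 ± 28.0, 28.7 ± 4.18 and 56.2 ± 5.17. DES and HAS1, also on the list of 18 mesothelial genes, were below an FPKM of 1 on average. Of the mesenchymal genes, VIM stood at 737 ± 103, CDH11 at 289 ± 22.0 and CDH2 at 116 ± 7.90. The transcription factors that mark this state were far lower, with ZEB1 at 15.9 ± 2.79, ZEB2 at 6.73 ± 1.97, TWIST1 at 5.10 ± 1.95, TWIST2 at 3.21 ± 1.44, SNAI2 at 2.67 ± 0.793 and SNAI1 at 1.69 ± 0.827. The epithelial genes CDH1 (E-cadherin) and CLDN1 had 10.9 ± 7.67 and 32.8 ± 8.53, and EPCAM had 0.0137. BAP1, a nuclear deubiquitinase often lost in mesothelioma, was listed at 0 in all 15 tumors. CDKN2A, which encodes the p16 and ARF inhibitors and is deleted in many mesotheliomas, had 1.40 ± 0.975, and its neighbours MTAP and CDKN2B had 11.6 ± 5.67 and 15.2 ± 4.10. MDM2, a ubiquitin ligase, had 170.0 ± 16.3 and CDKN1A, a cyclin-dependent kinase inhibitor, 64.4 ± 9.05.

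Growth factor receptors were led by EGFR at 236 FPKM ± 25.8 (SD, n = 15), MET at 204 ± 22.8 and IGF1R at 161 ± 11.7. GAS6, the ligand of AXL, had 656 ± 92.3, whereas HGF, the ligand of MET, and the EGFR ligand EREG were listed at 0 in all tumors. Matrix genes ranged widely, with SPARC at 1685 ± 309, COL6A1 at 729 ± 62.3 and COL1A1 at 597 ± 143 but FN1 (fibronectin) at 4.26 ± 1.66, POSTN at 0.0436 and COL1A2 at 0.0385. Among inflammatory genes, SAA1 had 1370 ± 757, SOD2 846 ± 370, CCL2 271 ± 106, CXCL8 154 ± 131 and IL6 149.5 ± 151, with an SD near the mean for CXCL8 and above it for IL6. Of the lipid enzymes, the desaturase SCD had 1353 ± 279 and FADS1 607 ± 64.1. The proliferation marker MKI67 had 12.5 ± 2.16, TOP2A 39.4 ± 6.46 and CCNB1, the mitotic cyclin, 38.7 ± 9.50.

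Markers of other cell types were mostly at or near 0, with a few high genes on each of the longer lists. The summed level of 8 erythrocyte genes was 0 to 8.47 FPKM in the 15 tumors, with 6 of the 8 (HBB among them) at 0 throughout, and that of 10 skeletal muscle genes was 0.301 to 4.72. The 15 leukocyte genes summed to 62.0 to 276 FPKM, nearly all of it CD68 (mean 148), a lysosomal protein, while PTPRC and CD3E had means of 0.164 and 0.0142. The 10 endothelial genes summed to 32.6 to 109, nearly all of it KDR (mean 58.8), a receptor of VEGFA, while PECAM1 had a mean of 0.0878 and CLDN5 and EMCN were listed at 0. Among 13 fibroblast and pericyte genes, whose sum was 931 to 1340, COL1A1 and COL3A1 were high and COL1A2, DCN, LUM and PDGFRA had means of 0.0385, 1.18, 0.758 and 0.314. The 10 keratinocyte genes summed to 480 to 1500 through KRT5, and KRT1, LOR and FLG had means of 0.102, 0 and 0.138. The genes listed are human and the host cells are mouse, and how mouse reads were handled is not given. A value near 0 therefore does not show how many host cells were present. In a bulk library, fewer cells of a type and less RNA per cell cannot be told apart.

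The 3 untreated groups were then compared gene by gene, to ask how far mice given no compound differ from one study to the next. Differences were tested on log2(FPKM + 1) with limma over 11762 genes, with Benjamini-Hochberg adjustment and a threshold of 0.05. On this scale changes of low genes are understated. Over all 3 groups, 198 genes (1.68%) passed the F test. Between single pairs of studies, 406 genes (3.45%) differed between the 24 h and the 3-6 h study, with 205 higher (1.74%) and 201 lower (1.71%) in the 24 h study. Groups lay apart with no overlap in 262 of the 406 genes, and over all genes tested every tumor of the 24 h study lay above every tumor of the 3-6 h study in 1.84% and below in 2.75%. Only 16 (0.136%) differed between the 3-6 h and the 1 h study, and 1 (0.0085%) between the 24 h and the 1 h study. At an unadjusted p under 0.05, the same 3 comparisons gave 2210, 1236 and 1296 genes. The contrasts share groups and are not independent. Of the 406 genes, 379 (93.3%) had their mean of the 1 h study between the means of the other studies, against 42.4% of all genes tested, an order that choosing genes by the difference of the outer groups itself favours.

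The counts depended on single tumors. Without replicate 1, 3 or 5 of the 3-6 h study the 24 h and 3-6 h studies differed in 168, 208 or 171 genes, without replicate 1, 2, 4 or 5 of the 24 h study in 190, 740, 229 or 210 genes, and with any other tumor left out the count stayed within 1.5 times 406. Over all 3 groups the F test gave 36 to 448 genes with 1 tumor left out, with 43, 109, 78, 310 and 36 without replicates 1 to 5 of the 3-6 h study, 45, 448, 71 and 51 without replicates 1, 2, 4 and 5 of the 24 h study, and 298 and 122 without replicates 2 and 3 of the 1 h study. When the fit included all 94 libraries of the series, 3 of them with few genes, the counts fell to 0 for the F test and to 2 between the 24 h and 3-6 h studies, and in a fit of the 91 other libraries they were 337 and within 1.5 times 406.

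**Figure D2:**
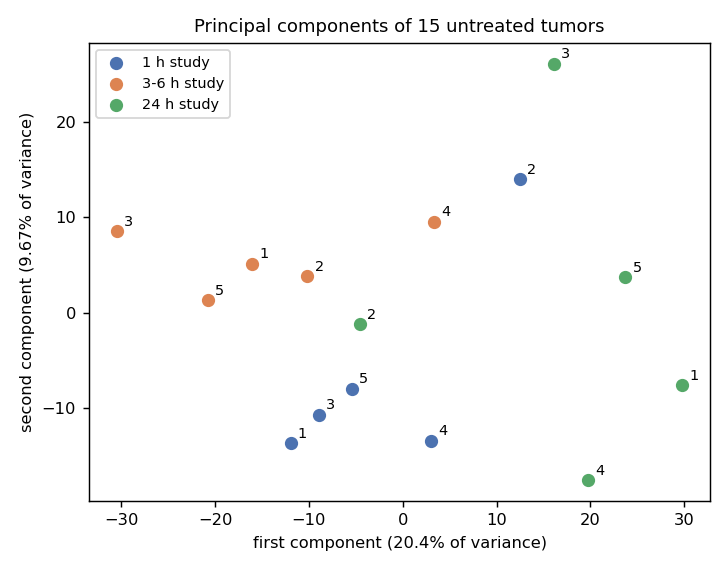
First and second principal components of log2(FPKM + 1) over the genes tested, 1 point for each of the 15 untreated tumors, coloured by study and numbered by replicate, with the percent of variance on each axis (20.4 and 9.67). Tumors of the 3-6 h study lay between -30.4 and 3.32 on the first component and those of the 24 h study between -4.54 (replicate 2) and 29.8.

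The widest difference between the 24 h and the 3-6 h study by number of genes was in the list of hypoxia and glycolysis genes. Of its 29 tested members, 17 (58.6%) were higher in the 24 h study and 0 were lower, against 1.74% and 1.71% of all genes tested, and 28 had a positive difference. Their median difference was 0.49 on the log2 scale, against -0.04 for all genes tested. The members past the test cover glucose uptake (SLC2A1, SLC2A3), glycolysis (HK2, PFKFB4, ALDOA, GAPDH, PGK1, ENO1, ENO2, LDHA), vessel growth (VEGFA, ADM, ANGPTL4), collagen modification (P4HA1, LOX) and the stress genes NDRG1 and BNIP3. CA9, a carbonic anhydrase and classic marker of hypoxia, differed by 0.03 and P4HA2 by -0.03, and EGLN3 was listed at 0 in all tumors. BNIP3L and CA12, which were not on the list, were among the 10 genes with the lowest p of the F test and had log2 differences of 0.95 ± 0.13 and 1.47 ± 0.17 (SE). The count of 17 fell to 7 to 10 when replicate 1, 3 or 5 of the 3-6 h study or replicate 1, 4 or 5 of the 24 h study was left out, with medians between 0.35 and 0.51, and to 0 with the number of detected genes as a covariate (median 0.64) or with all 94 libraries in the fit (median 0.49).

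Promoters of 4 of these genes are shown because hypoxia-inducible factors bind the core sequence ACGTG or GCGTG. Each runs over the 250 bases before the transcription start in the RefSeq annotation of GRCh38.p14, written 5′ to 3′ on the strand of the gene, and capitals mark ACGTG or GCGTG on either strand (CACGT or CACGC as read here). The windows lie at chr19:8363905-8364154 (+) for ANGPTL4, chr2:74833877-74834126 (+) for HK2, chr5:122078260-122078509 (-) for LOX and chr10:131981924-131982173 (-) for BNIP3.
ANGPTL4: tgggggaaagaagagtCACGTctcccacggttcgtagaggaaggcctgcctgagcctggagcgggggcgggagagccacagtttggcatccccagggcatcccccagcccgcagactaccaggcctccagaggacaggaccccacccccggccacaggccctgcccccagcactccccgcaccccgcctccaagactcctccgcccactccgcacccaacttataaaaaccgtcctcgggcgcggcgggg
HK2: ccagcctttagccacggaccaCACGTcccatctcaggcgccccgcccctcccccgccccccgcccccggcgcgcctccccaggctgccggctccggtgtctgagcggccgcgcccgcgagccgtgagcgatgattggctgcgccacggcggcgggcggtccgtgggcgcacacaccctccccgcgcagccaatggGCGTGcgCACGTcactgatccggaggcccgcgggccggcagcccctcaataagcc
LOX: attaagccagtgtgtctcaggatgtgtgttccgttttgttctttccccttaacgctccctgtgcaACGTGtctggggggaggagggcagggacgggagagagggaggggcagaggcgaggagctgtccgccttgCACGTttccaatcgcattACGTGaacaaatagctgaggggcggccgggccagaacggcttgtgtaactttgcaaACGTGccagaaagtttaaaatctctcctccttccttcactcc
BNIP3: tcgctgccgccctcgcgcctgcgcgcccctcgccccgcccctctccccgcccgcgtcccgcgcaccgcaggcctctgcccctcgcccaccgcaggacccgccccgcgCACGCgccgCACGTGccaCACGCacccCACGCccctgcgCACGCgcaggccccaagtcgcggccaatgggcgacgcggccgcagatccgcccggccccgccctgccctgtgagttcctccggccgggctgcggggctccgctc
The core was found in 13 of 14 genes past the test with a promoter entry (92.9%), in 19 of 27 on the whole list (70.4%) and in 15172 of 35116 promoters of the same length (43.2%). SLC2A1 held none in this window. A match describes letters and does not show binding.

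Tumor by tumor, HK2, a hexokinase that phosphorylates glucose, stood at 25.9, 18.7, 3.67, 30.8 and 14.9 FPKM in the 3-6 h study and at 78.8, 35.2, 51.6, 61.4 and 71.3 in the 24 h study. The groups did not overlap, the ratio of means was 3.18, and the log2 difference was 1.82 ± 0.39 (SE, adjusted p = 0.0180 by limma). In the 1 h study HK2 stood at 46.1, 25.7, 32.9, 33.4 and 20.3. Its mean there lay between those of the other studies, and its values overlapped with both. SLC2A1, the glucose transporter GLUT1, stood at 48.1, 73.3, 23.4, 83.9 and 41.8 FPKM in the 3-6 h study and at 199, 93.9, 103, 177 and 173 in the 24 h study, also without overlap (log2 difference 1.51 ± 0.28, adjusted p = 0.00828). ANGPTL4, a secreted inhibitor of lipoprotein lipase, had 48.8, 72.6, 5.63, 83.7 and 35.5 FPKM against 248, 87.3, 144, 259 and 192, without overlap (2.21 ± 0.57, adjusted p = 0.0487). With 1 tumor left out its call held in 4 of 15 fits, as did that of BNIP3, and the calls of ALDOA and ENO1 held in 3 and 7. NDRG1 had 202, 313, 69.1, 299.9 and 242 against 908, 383, 471, 1053 and 667 (1.70 ± 0.38, adjusted p = 0.0262). LOX, which crosslinks collagen, had 219, 260, 164, 320 and 180 against 955, 292, 591, 748 and 700 (1.46 ± 0.25, adjusted p = 0.00655), with replicate 2 of the 24 h study inside the range of the 3-6 h study. Even GAPDH, often used as a reference, had 3743, 4008, 3394, 4320 and 3671 against 5035, 4430, 4520, 4752 and 4936, without overlap (0.31 ± 0.06, adjusted p = 0.00828).

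Single tumors stood at the ends of this range. Replicate 3 of the 3-6 h study was the lowest of all 15 tumors in 23 of the 29 hypoxia and glycolysis genes (79.3%, against 8.83% of all genes), and replicates 1 and 4 of the 24 h study were the highest in 10 and 9 of them. In the inflammatory list, replicate 3 of the 3-6 h study was the lowest in 19 of 23 genes (82.6%) and replicate 1 of the 24 h study the highest in 16 (69.6%, against 7.59% of all genes). Replicate 4 of the 24 h study was the highest in 0 of the 23 inflammatory genes, so that the lists shared replicate 3 of the 3-6 h study at the lower end and replicate 1 of the 24 h study at the upper end.

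**Figure D3:**
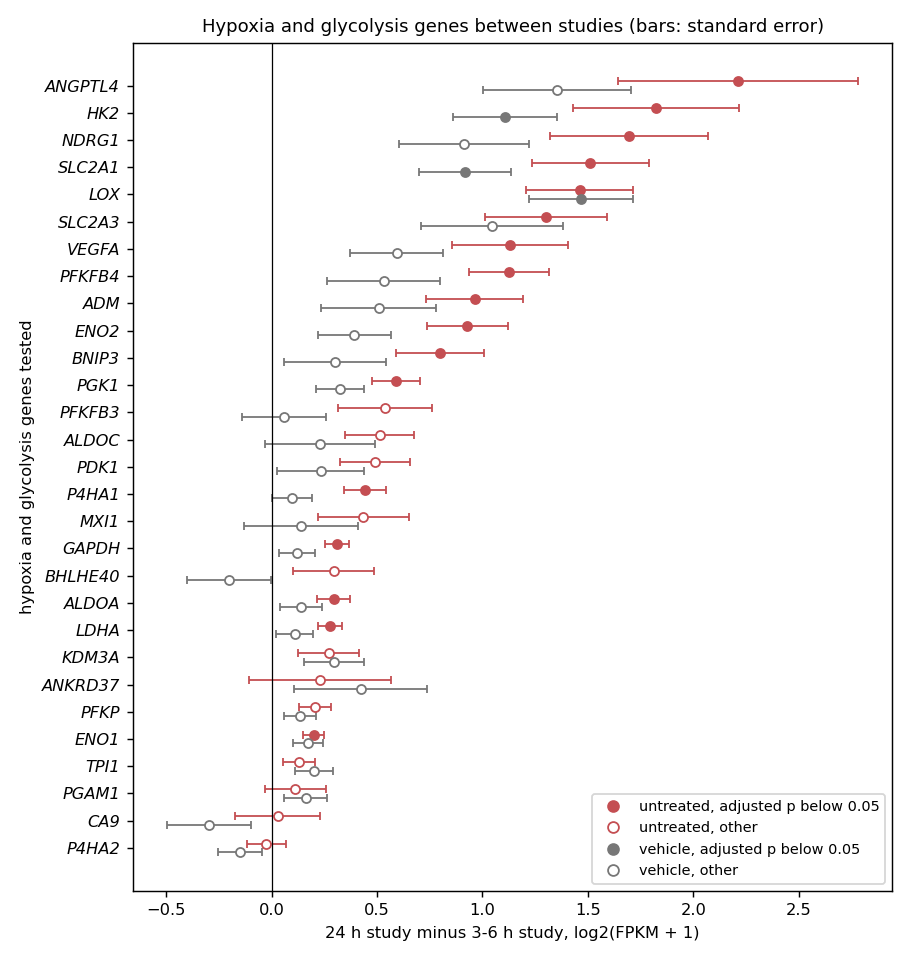
Difference between the 24 h and the 3-6 h study on the log2(FPKM + 1) scale (horizontal axis) for each of the 29 tested hypoxia and glycolysis genes, in untreated tumors (red) and vehicle tumors (grey), with bars for the SE and filled points for an adjusted p below 0.05. In untreated tumors 28 of the 29 differences were above 0 and 17 points are filled, and in vehicle tumors HK2, SLC2A1 and LOX are filled.

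Genes of the Hippo pathway and of mesothelial identity also differed between the 24 h and the 3-6 h study, in both directions. TEAD1 (chr11:12674591-12944483 +), given tumor by tumor above, was lower in the 24 h study by 0.37 ± 0.07 on the log2 scale (ratio of means 0.772, adjusted p = 0.00769), and the call held without each of the 15 tumors in turn. The call held in 9 of 11 alternative settings and was lost with the number of detected genes as a covariate. None of the other TEAD genes passed the test. Of 20 tested upstream genes, 2 (10%) were lower and 1 (5%) was higher, against 1.71% and 1.74% of all genes tested. FAT1 (-0.48 ± 0.09, adjusted p = 0.0102) and the LIM protein AJUBA (-0.32 ± 0.08, adjusted p = 0.0351) were the lower ones. FRMD6, a relative of merlin, was higher (0.51 ± 0.13, adjusted p = 0.0436). With 1 tumor left out the calls of AJUBA and FRMD6 held in 7 and 6 of 15 fits. FAT1 stood at 188, 187, 235, 176 and 189 FPKM in the 3-6 h study and at 122, 170.3, 139, 135 and 131 in the 24 h study, with no overlap. Of 22 targets of YAP1 and TEAD, NT5E (CD73, which makes adenosine) and IGFBP3, which binds insulin-like growth factors, were higher and AJUBA, which is on both lists, was lower. IGFBP3 had 50.7, 88.1, 50.0, 100.2 and 53.4 FPKM against 252, 102, 133, 176 and 180.1, without overlap (1.29 ± 0.23, adjusted p = 0.00769). NT5E had 116, 128, 64.8, 186 and 83.9 against 291, 142, 260.1, 290.0 and 349 (1.23 ± 0.29, adjusted p = 0.0303), where replicate 2 of the 24 h study lay within the range of the 3-6 h study.

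The promoter of CCN2 (chr6:131951373-131951622, - strand, 250 bases before the start in the same RefSeq annotation) is shown because TEADs bind the sequence GGAATG, which is in capitals on either strand and occurs 3 times in it.
CCN2: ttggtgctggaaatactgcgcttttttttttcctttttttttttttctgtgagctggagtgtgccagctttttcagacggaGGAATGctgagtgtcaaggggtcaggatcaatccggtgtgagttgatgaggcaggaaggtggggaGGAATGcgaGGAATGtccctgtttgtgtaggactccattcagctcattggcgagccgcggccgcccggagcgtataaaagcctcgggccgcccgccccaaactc
The motif was found in 6 of 17 targets with a promoter entry (35.3%) and in 4175 of all 35116 promoters (11.9%). CCN2 itself had a mean of 12.5 FPKM and did not pass the test in any pair of studies.

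Of the 22 targets, 2 (9.09%) were higher and 1 (4.55%) was lower in the 24 h than in the 3-6 h study, against 1.74% and 1.71% of all genes tested. Their median difference was 0.11 on the log2 scale against -0.04 for all genes, and 14 of the 22 (63.6%) were positive against 42.4% of all genes. The deR score of YAP1-TEAD dependent transcription, which ranks effector genes within a tumor and subtracts the mean fractional rank of 233 negative ones from that of 249 positive ones, was 0.212 ± 0.0118 (SD, n = 5) in the 1 h study, 0.217 ± 0.00916 in the 3-6 h study and 0.217 ± 0.00969 in the 24 h study. The 3 differences were 0.00508, 0.00572 and 0.000639 (adjusted p = 0.679, 0.679 and 0.921, two-sided exact permutation tests, for which the smallest p with 5 against 5 is 0.00794). The higher TEAD1 of the 3-6 h study was measured beside deR scores that did not pass a test of difference.

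Of 16 tested mesothelial genes, 3 (18.8%) were lower in the 24 h than in the 3-6 h study and 0 were higher, against 1.71% and 1.74% of all genes tested, with a median difference of -0.26 against -0.04. CALB2 had 650.1, 639.5, 776, 587 and 686 FPKM in the 3-6 h study and 467, 611, 446, 454 and 438 in the 24 h study (-0.47 ± 0.11, adjusted p = 0.0285), overlapping only through replicate 2 of the 24 h study. ITLN1, a secreted lectin of mesothelium, had the most uneven values, with 489, 161, 375, 108 and 1305 FPKM in the 3-6 h study and 8.98, 43.7, 43.5, 77.0 and 8.00 in the 24 h study. Its groups did not overlap (-3.64 ± 0.91, adjusted p = 0.0480), yet the call held in only 4 of the 15 fits with 1 tumor left out. LRRN4 fell by 0.55 ± 0.13 (adjusted p = 0.0245). Of 14 tested epithelial and mesenchymal genes, 3 (21.4%) were higher and 1 (7.14%) was lower, against 1.74% and 1.71% of all genes tested. VIM (0.37 ± 0.08, adjusted p = 0.0170), ZEB2 (0.63 ± 0.16) and CLDN1 (0.71 ± 0.14) were higher. CDH1 was lower (-1.54 ± 0.41, adjusted p = 0.0481), with overlapping groups of 11.9 to 26.7 and 2.38 to 18.5 FPKM. With 1 tumor left out the calls of CDH1 and ZEB2 held in 3 and 4 of 15 fits.

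Inflammatory genes had a larger median difference than the hypoxia genes but wider spread, and a smaller share of them passed the test. Of 23 tested, 22 (95.7%) had a positive difference between the 24 h and the 3-6 h study, against 42.4% of all genes, with a median of 1.36 on the log2 scale, and 3 (13%) passed as higher, against 1.74% of all genes. These were the cytokine gene IL1A (1.36 ± 0.31), TNFAIP3, an inhibitor of NF-kappa-B signalling (1.57 ± 0.35), and complement factor CFB (1.02 ± 0.24). IL6 stood at 67.6, 65.3, 4.11, 197 and 31.8 FPKM in the 3-6 h study and at 572, 36.8, 252, 328 and 222 in the 24 h study (2.28, adjusted p = 0.210). CXCL8 stood at 66.3, 78.3, 2.53, 194 and 27.2 against 537, 84.4, 171, 240.0 and 249.9 (2.43, adjusted p = 0.15). In both genes replicate 3 of the 3-6 h study was lowest, and the groups overlapped. SAA1, which shares near-identical sequence with SAA2 so that reads may be split between them, differed by 1.54 (adjusted p = 0.0920).

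Metallothioneins, small proteins that bind zinc and copper, were higher in the 24 h than in the 3-6 h study. MT1X had 21.6, 45.8, 23.1, 63.2 and 36.1 FPKM against 116, 102, 90.5, 92.3 and 125, without overlap (1.54 ± 0.24, adjusted p = 0.00435), and MT2A, MT1F and MT1E differed by 1.23 ± 0.28, 1.04 ± 0.17 and 0.61 ± 0.15, the last with a call that held in 6 of 15 fits with 1 tumor left out. These genes have near-identical copies, and the assignment of reads between them is uncertain. On the list of 13 tested NRF2 and metallothionein genes they were the 4 that were higher (30.8%), and 1 gene was lower (7.69%). Over all genes tested, 1.74% were higher and 1.71% lower. MT2A and MT1X also belong to the list of 13 tested glucocorticoid response genes. There 4 (30.8%) passed as higher, MT2A and MT1X together with ANGPTL4 and the receptor gene NR3C1 (0.52 ± 0.12). All 13 had a positive difference (100%, against 42.4% of all genes). Their median was 0.41 on the log2 scale in untreated tumors and 0.37 in vehicle tumors. Matrix genes split. Of 23 tested, 3 (13%) were higher, LOX and LOXL2 (0.63 ± 0.12) among them. COL12A1 (-0.31 ± 0.08) and LAMA5 (-0.25 ± 0.06) were lower (8.7%).

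Smaller numbers passed in other lists, where the shares stand against 1.74% higher and 1.71% lower of all genes tested. Of 23 immediate-early genes tested, the transcription factors FOSL1 (1.45 ± 0.37) and NR4A3 (0.78 ± 0.20) were higher (8.7%). Their calls held in 7 and 4 of 15 fits with 1 tumor left out. Of 13 MAPK feedback genes, the phosphatase DUSP4 (0.85 ± 0.17) and PHLDA1 (1.23 ± 0.30) were higher (15.4%). The chaperone genes HSPA8 (-0.33 ± 0.07) and DNAJA1 (-0.34 ± 0.08) were lower among 16 heat shock genes (12.5%). Among 22 stress genes, PHGDH, an enzyme of serine synthesis (-0.80 ± 0.17), and VLDLR (-0.50 ± 0.11) were lower (9.09%). In the same list EDEM1 (0.53 ± 0.09) was higher (4.55%). Among 24 growth factor genes, TGFBR1 (0.58 ± 0.13) passed as higher beside IGFBP3 (8.33%). No gene passed in this comparison among 25 S phase genes, 28 genes of G2 and mitosis, 31 interferon response genes, 21 circadian clock genes, 23 sterol synthesis genes, 14 fatty acid genes, 27 genes of oxidative phosphorylation, 24 ribosomal proteins, 14 replication histones and 12 tumor suppressors. The histone gene H3C11, which is not among these 14, was lower (-0.65 ± 0.15, adjusted p = 0.023). The interferon genes had a median difference of 0.15 and the fatty acid genes of -0.15.

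Of the marker genes of other cells, 3 moved with this difference. KDR had 93.2, 68.6, 92.3, 80.1 and 104 FPKM in the 3-6 h study and 35.4, 62.2, 39.2, 45.0 and 32.4 in the 24 h study (-1.04 ± 0.20, adjusted p = 0.0111), without overlap, and was 1 of 4 endothelial genes tested. CD68 had 104, 109, 51.2, 130.2 and 91.9 against 211, 141, 182, 264 and 206 (1.07 ± 0.21, adjusted p = 0.0125), without overlap, and was 1 of 5 leukocyte genes tested. The defining markers PECAM1, CLDN5, PTPRC and CD3E were at or near 0 in all groups, as given above. Whether the levels of KDR and CD68 come from tumor or host cells was not tested. SBSN, on the keratinocyte list, differed by 0.94 ± 0.25, and its call held in 3 of 15 fits with 1 tumor left out. The count of detected genes (FPKM of 1 or more) also moved with this difference, since it was 11379 ± 41.6 (SD, n = 5) in the 24 h study and 11487 ± 56.2 in the 3-6 h study with no overlap (adjusted p = 0.0476, two-sided exact permutation test). With this number as a covariate in the limma fit, the count of 406 fell to 1. As the groups did not overlap in this number, its part in the result cannot be told apart from that of the study.

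**Figure D4:**
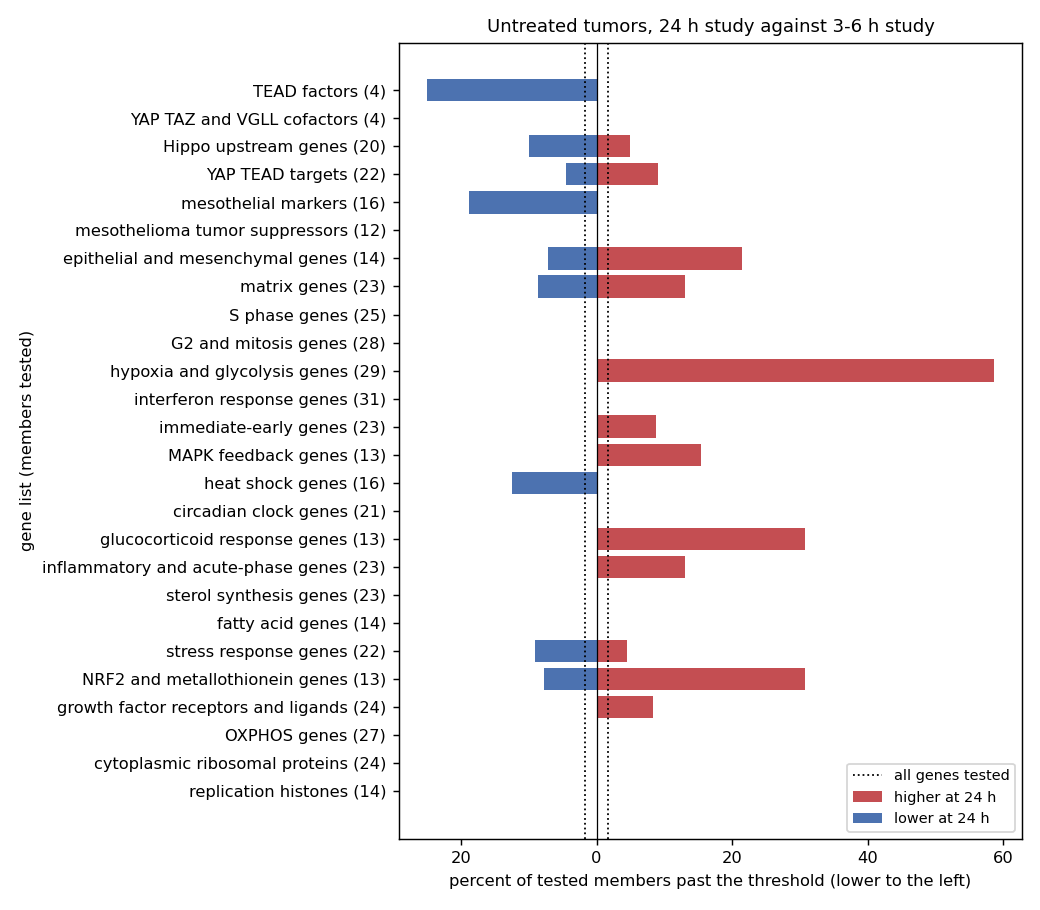
Percent of the tested members of each gene list past the threshold between the 24 h and the 3-6 h study in untreated tumors, higher to the right in red and lower to the left in blue, with the number tested in brackets and dotted lines for all genes tested (1.74% and 1.71%). Hypoxia and glycolysis genes reached 58.6% on the higher side, and 18.8% of the mesothelial genes stood on the lower side.

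The genes with the largest differences among those past the test with no overlap of groups were not confined to these lists. In the 24 h study, CHI3L2, a chitinase-like secreted protein, had 54.5, 16.04, 32.1, 39.2 and 28.3 FPKM against 5.10, 5.94, 2.97, 12.2 and 5.92 in the 3-6 h study, the highest difference by this rule (2.25 ± 0.31, adjusted p = 0.00218). ABI3BP (1.86 ± 0.31), DEPP1 (1.83 ± 0.38), ANGPTL4 and HK2 followed. At the other end, ITLN1 was followed by GJA5, the gap junction protein connexin 40, with 8.76, 30.5, 6.32, 10.8 and 9.88 FPKM in the 24 h study against 45.1, 53.6, 45.8, 37.0 and 67.8 (-2.01 ± 0.29, adjusted p = 0.00287). KRT4 (-1.64 ± 0.21), DOCK11 (-1.50 ± 0.29) and PRR15 (-1.48 ± 0.29) came next. SUSD2, a membrane protein, had the lowest p of the F test, with 59.6, 69.5, 41.0, 48.3 and 49.9 FPKM against 136, 139, 112, 105 and 129 in the 3-6 h study (-1.21 ± 0.12, adjusted p = 0.000240).

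Between the 3-6 h and the 1 h study, 11 genes (0.0935%) were higher and 5 (0.0425%) lower in the 3-6 h study. TEAD1 was among the higher ones, by 0.48 ± 0.07 on the log2 scale (ratio of means 1.4, adjusted p = 0.00541), and this call too held without each of the 15 tumors. It held in 10 of 11 alternative settings, all but the fit of all 94 libraries. The other higher genes were the Notch target HES1 (1.02 ± 0.15), the receptor LIFR (0.70 ± 0.13), SUSD2 (0.67 ± 0.12), PTPRQ (0.77 ± 0.11), KRT4 (1.16 ± 0.21), STON2 (1.51 ± 0.24) and the histone genes H3C7, H3C11 (1.07 ± 0.15), H4C3 (0.50 ± 0.09) and H2BC5 (0.75 ± 0.13). PTPRQ, a receptor-type phosphatase, was the most even, at 14.3, 13.6, 14.2, 13.7 and 13.2 FPKM in the 1 h study and 23.7, 23.2, 23.4, 23.6 and 27.3 in the 3-6 h study. HES1 stood at 11.2, 17.9, 17.2, 10.3 and 13.8 against 24.8, 34.7, 25.3, 31.7 and 29.5, without overlap. The lower genes were MT1F (-1.09 ± 0.17), the actin-associated TES (-0.67 ± 0.12), the protease TMPRSS3 (-0.63 ± 0.11), the complement inhibitor CD55 (-0.39 ± 0.07) and TMBIM1 (-0.36 ± 0.06). All but H2BC5 of the 16 had groups without overlap, whereas 1.71% of all genes tested had every tumor of the 3-6 h study above and 0.935% below those of the 1 h study. Of the 16, 10 also passed between the 24 h and the 3-6 h study. With 1 tumor left out, the call of H4C3 held in 5 of 15 fits, that of KRT4 in 6, and those of SUSD2, H2BC5, TES, CD55 and TMBIM1 in 7. LIFR, which had the highest adjusted p of the 16 (0.046 by limma), was not followed in this way. With 1 tumor left out the count was 5 to 42, the lowest without replicate 1 and the highest without replicate 2 of the 1 h study, and it moved by over 1.5 times without replicates 3 (6), 4 (7) and 5 (8) of that study, replicates 1 (6), 2 (8) and 5 (9) of the 3-6 h study and replicates 2 (25) and 5 (10) of the 24 h study.

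H3C7 (chr6:26250195-26250605 -), which encodes histone H3.1, was the only gene past the test between the 24 h and the 1 h study. It stood at 40.4, 39.9, 27.7, 27.9 and 32.3 FPKM in the 1 h study, at 65.6, 72.1, 90.5, 88.2 and 53.6 in the 3-6 h study, and at 63.7, 66.6, 72.5, 68.7 and 86.8 in the 24 h study. Both later groups lay above the 1 h study without overlap, by 1.11 ± 0.15 (adjusted p = 0.00541) and 1.08 ± 0.15 (adjusted p = 0.0131) on the log2 scale. Between the 24 h and the 1 h study the call of H3C7 held in 8 of 11 alternative settings. It held in 12 of 15 fits with 1 tumor left out. In the fit of 91 libraries 1 gene passed in this comparison, but H3C7 did not. Replication histones have near-identical copies, so the assignment of reads is uncertain. The list of 14 tested replication histones does not include H3C7 or H3C11. All 14 had a positive difference between the 3-6 h and the 1 h study (median 0.42), against 58.1% of all genes tested (median 0.04). Of the 14, 2 (H4C3 and H2BC5) passed as higher, against 0.0935% of all genes. In vehicle tumors the median of the 14 was 0.13 and 0 passed. In the same comparison all 28 genes of G2 and mitosis and 22 of 25 S phase genes had positive differences, with medians of 0.26 and 0.23, and none of them passed. The medians of the same lists in vehicle tumors were 0.01 and 0.04, and 0 passed there too. One-sided signs were not particular to these lists. In untreated tumors 25 of 27 genes of oxidative phosphorylation (92.6%) and 14 of 16 mesothelial genes (87.5%) also had positive differences. The medians of these 2 lists were 0.10 and 0.14.

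Between the 24 h and the 1 h study, genes without overlap that did not pass included the histones H2AC14 (13.7 ± 2.66 to 30.5 ± 4.12 FPKM) and H4C11 (8.19 ± 0.919 to 17.6 ± 5.54), the cytoskeletal RAI14 (279 ± 49.4 to 578 ± 202) and ADM (82.5 ± 8.12 to 155 ± 31.4) among the higher ones. ANKRD44 (11.0 ± 2.40 to 4.48 ± 1.54), PRICKLE1 (14.0 ± 3.86 to 7.15 ± 1.75), IQCN (5.72 ± 1.21 to 3.03 ± 0.387), TXNIP (48.5 ± 7.95 to 30.6 ± 6.24), which encodes an inhibitor of glucose uptake, and the unnamed gene ENSG00000124593 (26.5 ± 2.12 to 16.3 ± 3.78) were lower. Groups lay apart in this way for 0.978% of all genes upwards and 0.689% downwards. The number of genes called between these studies was 25 without replicate 2 of the 1 h study, 53 without replicate 2 of the 24 h study, 2 without replicate 3 of either, and 0 without replicate 4 or 5 of the 1 h study or replicate 5 of the 24 h study.

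Vehicle tumors of the same studies share no sample with the untreated ones and were compared between the same studies. Vehicle mice had received a dose, so their study differences also carry the time since dosing, which untreated mice lack. Between the 24 h and the 3-6 h study, 170 genes (1.45%) passed in vehicle tumors, 74 higher (0.629%) and 96 lower (0.816%). Of the 406 genes of the untreated tumors, 388 (95.6%) had the same sign in vehicle tumors, against 65.7% of all genes tested, and 75 passed in the same direction and 0 in the opposite one. Their median size was 0.69 on the log2 scale in untreated tumors and 0.40 in the same direction in vehicle tumors. The 406 genes were chosen for their difference in untreated tumors. Between the 3-6 h and the 1 h study, 6 genes (0.051%) passed in vehicle tumors, 4 higher (0.034%) and 2 lower (0.017%), and the 16 genes of the untreated tumors all had the same sign but none of them passed. H3C7 differed there by only 0.09 (adjusted p = 0.928). The count of 6 was 1, 0 and 1 without replicates 2, 3 and 5 of the 1 h vehicle tumors, 3 without replicate 2, 3 or 4 and 36 without replicate 5 of the first 3-6 h vehicle cage group, and 42 without replicate 2 of the second. Between the 24 h and the 1 h study 0 genes passed in vehicle tumors (0% of those tested, 791 at an unadjusted p under 0.05). In tests of whether a study difference itself differed between untreated and vehicle tumors, no gene passed in any of the 3 comparisons, although 498, 485 and 563 genes had an unadjusted p under 0.05. Without replicate 1 of the 24 h vehicle tumors 1 gene passed between the 24 h and the 1 h study in vehicle tumors and 1 in the test against untreated tumors, and without replicate 1 of the 1 h vehicle tumors 2 passed in the latter.

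The difference in vehicle tumors also depended on which cage group stood for the 3-6 h study. As these cage groups may also differ in time after the dose (3 h or 6 h), cage and time cannot be told apart. Within the 3-6 h study, the second vehicle cage group (cage 3) differed from the first (cage 2) in 13 genes (0.111%), 12 of them higher, and in 28 of 29 hypoxia and glycolysis genes (96.6%, against 48.6% of all genes) cage 3 was the higher, with a median of 0.54 on the log2 scale and 3 past the test. The summed level of the hypoxia and glycolysis list was 7205 to 8828 FPKM in cage 2 and 8094 to 11680 in cage 3. In untreated tumors it was 8526 to 9555 in the 1 h study, 6998 to 9379 in the 3-6 h study and 9656 to 12640 in the 24 h study, and in vehicle tumors of the 1 h and 24 h studies 7580 to 11330 and 9683 to 11720. When cage 2 alone stood for the 3-6 h study, 510 genes passed between the 24 h and the 3-6 h study in vehicle tumors, 12 of them on the hypoxia list (median 0.57), and with cage 3 alone 7 passed and 0 of the list did (median 0.01). Without replicate 2 of the 24 h vehicle tumors the count of 170 fell to 2, without replicates 1, 3 and 4 to 48, 54 and 64, without replicate 4 of cage 2 to 104, and without replicate 5 of cage 2 or replicate 2 of cage 3 it was 307 or 340. HK2 (1.11, adjusted p = 0.0292), SLC2A1 (0.92, adjusted p = 0.0379) and LOX (1.47, adjusted p = 0.0100) passed in vehicle tumors with both cages.

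TEAD1 in vehicle tumors stood at 104 to 137 FPKM in the 1 h study, at 131 to 156 in cage 2 and 106 to 159 in cage 3 of the 3-6 h study, and at 89.1 to 120 in the 24 h study. Cage 2 overlapped with the 1 h study at its lower end and lay above the 24 h study, and cage 3 overlapped with both. Its differences in vehicle tumors were 0.23 (adjusted p = 0.342) between the 3-6 h and the 1 h study and -0.34 (adjusted p = 0.0724) between the 24 h and the 3-6 h study, in the direction of the untreated tumors but not past the test. With cage 2 alone standing for the 3-6 h study TEAD1 passed between the 24 h and the 3-6 h study (-0.42, adjusted p = 0.0272), and with cage 3 alone it did not (-0.27, adjusted p = 0.433). The difference between the cages was -0.15 (adjusted p = 0.708). KDR stood at 61.8 to 99.8 in cage 2, 49.9 to 76.4 in cage 3 and 29.5 to 66.4 in the 24 h study. MT1F, which was higher in the 24 h study by 1.04 in untreated tumors, differed by 0.02 in vehicle tumors, and this contrast did not pass the test of difference (adjusted p = 0.970).

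**Figure D5:**
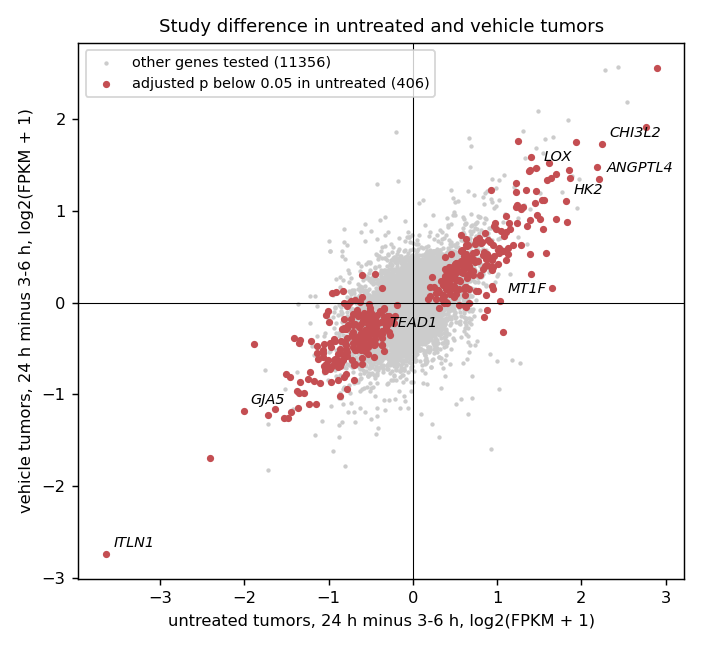
Difference between the 24 h and the 3-6 h study on the log2(FPKM + 1) scale in untreated tumors (horizontal axis) and in vehicle tumors (vertical axis), 1 point per gene tested, with the 406 genes past the test in untreated tumors in red. Of the red points, 388 lay on the same side of 0 on both axes.

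Within a study the tumors were alike for most genes. Over 8866 genes with a mean FPKM of at least 5, the median SD within groups was 0.22 on the log2 scale. The smallest SDs belonged to ECPAS (0.03), ZBTB7A, SEC61A1, RPL4 (0.04), LGALS1, ESYT2, GANAB, APP, CD63 and NONO (0.05), which include proteins of the ribosome, the translocon and the lysosome. The largest SDs fell on short, overlapping or readthrough genes such as LUZP6 (2.92), PIGY (2.37), MT-ND4L (1.96), MT-ATP8 (1.55) and NDUFC2-KCTD14 (1.52), where the assignment of reads is uncertain, and on the histone H3C4 (2.07). Beside these stood the secreted proteins IL6 (1.55), ITLN1 (1.51), CXCL8 (1.45), the protease inhibitor PI3 (1.15) and the matrix metalloprotease MMP3 (1.12).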

How the data were processed

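RNA from tumors kept in RNAlater (miRNeasy kit) was turned into libraries by KAPA RNA HyperPrep, and transcripts were captured with HyperCap probes before paired-end sequencing. The submitters' processing notes name STAR and GRCh38. The quantification tool, the annotation and the handling of mouse reads are not given in the sources used here. The authors deposited FPKM per gene, 1 column per library, which hold no read counts, so depth is unknown and no count test or sampling interval was possible. FPKM are scaled to the total of a library, so a gene's value also moves with the other genes.

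The table had 20555 entries. For repeated gene IDs only 1 entry was kept (316 dropped, 20239 IDs left), and 32 blank cells were read as 0. Coordinates follow the table, with starts moved to 1-based counting, and 15647 loci were identical in GENCODE 29 (GRCh38). All per-library columns were mapped to samples.

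The labels gave the groups, and replicates were numbered within groups. By the labels there were 3 untreated groups, although the design text counts 2. The members and the gene lists were chosen with earlier results of these data known. Differential expression was tested with limma 3.58.1 in R 4.3.3 (lmFit, contrasts, eBayes with trend and robust) on log2(FPKM + 1) of the 15 untreated tumors, for genes that reached an FPKM of 1 in 5 or more of them. The 19 vehicle tumors were fitted apart with the same genes, the mean of 2 cage groups standing for 3-6 h, and all 34 tumors together for the difference of differences. Adjusted p-values are Benjamini-Hochberg values over all genes tested. Single values were compared by two-sided exact permutation tests (SciPy 1.17.1). The script was tested on simulated data.

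Genes named are those of the lists, the 20 with the highest mean, the 5 highest and 5 lowest differences per comparison among genes past the threshold whose groups do not overlap (all genes where fewer than 10 passed, and then the 5 highest and 5 lowest with a mean FPKM of at least 5), the 10 with the lowest p of the F test, and the 15 with the largest and 10 with the smallest SD within groups. LIFR was named outside this rule, after its values were seen. A few genes of the lists, and 1 list, are not reported here. Promoters are the 250 bases before each start in RefSeq GRCh38.p14, found by symbol. Alternatives covered the pseudocount (0.1, 5), the filter, quantile and median-ratio scaling, fits of all 94 or of 91 libraries, eBayes without trend, library weights, the number of detected genes as a covariate and leaving out each tumor, and, chosen after seeing the data, 1 vehicle cage group at a time.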

Additional observations from a re-analysis of the deposited data

Results flagged for a closer look

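In 6 of 117 groups of 5 tumors examined (3 studies for each of 35 genes, and further measures per tumor), the highest or lowest value stood apart by Dixon's criterion, whose critical value for 5 samples is 0.71. Chance flags about 1 in 20 groups, so that this number is near what chance gives. MSLN in the 1 h study had a gap of 0.831 of its range, with replicate 2 at 210.0 FPKM and the others at 284 to 299. CCN1 in the same study had a gap of 0.9, with the same tumor at 285 and the others at 149 to 163. FAT1 in the 3-6 h study had a gap of 0.777, with replicate 3 at 235 against 176 to 189. CALB2 in the 24 h study had a gap of 0.832, with replicate 2 at 611 against 438 to 467. GJA5 in the 24 h study had a gap of 0.814, with the same replicate 2 at 30.5 against 6.32 to 10.8. PTPRQ in the 3-6 h study had a gap of 0.873, with replicate 5 at 27.3 against 23.2 to 23.7.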

How the results depend on the processing

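The counts moved as follows. Without a filter the F test gave 107 genes, 3-6 h against 1 h 8 and 24 h against 3-6 h in vehicle tumors 106. With all 94 libraries in the fit the F test, 3-6 h against 1 h, 24 h against 1 h and both vehicle comparisons with 3-6 h gave 0, and 24 h against 3-6 h 2. With 91 libraries the F test gave 337 and these vehicle comparisons 20 and 335. Without trend the F test gave 59, 3-6 h against 1 h 9 and 24 h against 1 h 0. With library weights they were 363 and 53, and 18 and 470 in vehicle tumors. With detected genes as a covariate the F test gave 4, the comparisons with 3-6 h 10 and 1, and those in vehicle tumors 0 and 2. With vehicle cage 3 alone the vehicle comparisons gave 0 and 7, with cage 2 alone 109 and 510. Quantile normalization gave 1 gene in the test of the 24 h against 1 h difference between untreated and vehicle tumors. With 1 tumor left out, the ranges were 36 to 448 for the F test, 5 to 42, 0 to 53 and 168 to 740 for the untreated comparisons, 0 to 42, 0 to 1 and 2 to 340 for vehicle, and 0 to 2 for that test. Genes at an FPKM of at least 1 differed by -122 to -92 between 24 h and 3-6 h (adjusted p = 0.0714 to 0.0952 in 10 of 15 exact tests, which have fewer tumors) and by 54.8 to 83.0 between 3-6 h and 1 h, and at an FPKM of at least 5 the latter was 89.0 (adjusted p = 0.0476). The share of the 10 highest genes differed by -0.832 to -0.528 percentage points there. The cause of these changes was not tested. No called difference that was followed through these alternatives changed direction. LIFR, and H3C11 between the 24 h and the 3-6 h study, were not followed. The deR differences did not pass under any alternative run. No paired analysis was possible because the labels carry no replicate numbers. FPKM hold no depth, which limits what can be said of low genes.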
